A study of Homo sapiens with 4 samples.

Results

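Cytosolic ribosomal protein genes encode the proteins of the large (60S) and small (40S) subunits of the ribosome outside mitochondria. The 50 genes described here were chosen by symbol, and all 50 were found among the 23143 symbols of the deposited FPKM table. Of these, 31 encode 60S and 19 encode 40S proteins. The list is not the whole family, and 28 further cytosolic ribosomal protein genes are used below for comparison.

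Ribosomes translate mRNA into protein, and each one holds a single copy of most of its proteins, with the acidic stalk proteins as an exception. Vertebrate ribosomal protein mRNAs are abundant, short and polyadenylated, and typically start with a C followed by a run of pyrimidines, the terminal oligopyrimidine (TOP) tract. Through that tract LARP1 and the mTOR pathway control their translation, while MYC is known to raise transcription of ribosomal protein and ribosome biogenesis genes.

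The libraries hold polyadenylated RNA of A549, a line from a human lung adenocarcinoma, in a form in which doxycycline induces the transcription factor GATA4. The labels give 2 libraries without doxycycline (noDOX 1 and 2, GATA4 at its normal level) and 2 with it (DOX 1 and 2, GATA4 overexpressed). The design text calls the treatment of the noDOX cells vehicle, all 4 libraries come from the same line, and the labels give neither a dose nor a time nor say whether the line is 1 clone. No DOX library from cells without the inducible GATA4 was analysed here. Nothing says that the replicates are separate cultures, so p-values measure only how these 4 libraries vary, and that variation may be technical.

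Values are FPKM, a fragment count divided by transcript length and library size, so levels can be compared between genes, and the depth behind them is unknown. For GATA4, noDOX 1 and 2 held 12.2 and 14.5 FPKM against 74.98 and 47.95 FPKM in DOX 1 and 2, a log2 difference of 2.09 (SE 0.30; limma, adjusted p = 0.289). Of 5 epithelial markers, KRT8 and KRT18 had lowest values of 2339 and 1728 FPKM, while KRT19 lay between 7.49 and 86.98, CDH1 between 8.73 and 25.8 and EPCAM between 3.08 and 13.7 FPKM. The enzymes NQO1, AKR1B10 and ALDH1A1, known to be high in A549 cells, had lowest values of 390.9, 1221 and 4368 FPKM. CDKN2A and CDKN2B, which A549 cells have lost, were listed at 0 in all 4. Of 12 blood, fibroblast and endothelial markers, 2 (CD14 and COL1A1) reached a mean of 1 FPKM, and the 12 summed to 12.1 and 15.8 FPKM in the noDOX and to 4.51 and 19.2 FPKM in the DOX replicates. Summed FPKM differed between replicates, at 1381822 and 989493 in noDOX 1 and 2 and at 975728 and 1238483 in DOX 1 and 2. Without microRNA and other small RNA genes the sums were 900317, 575406, 568318 and 755193.

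The annotated starts of these genes are shown first because the TOP tract is the sequence feature that ribosomal protein mRNAs share. RefSeq promoter entries on GRCh38.p14, a later build than the hg19 of the FPKM table, matched 42 of the 50 genes. Each line gives 30 bases before and 20 bases after an annotated start, and capitals mark a C at the start with the unbroken run of C or T that follows it, where that run has at least 4 bases. RPLP0, RPLP1 and RPLP2 form the stalk, RPS6, RPS19 and RPL13A are regulated or disease-linked members, RPS16 and RPL38 had the highest levels and RPL13 the lowest, and RPL35 had the lowest log2 difference. RPL3 and RPL4 carry no run of that length at the start listed.
RPLP0 (chr12:120201092-120201141, minus strand): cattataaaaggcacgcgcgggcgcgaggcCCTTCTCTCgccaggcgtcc
RPLP1 (chr15:69452788-69452837, plus strand): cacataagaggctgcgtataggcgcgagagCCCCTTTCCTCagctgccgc
RPLP2 (chr11:809937-809986, plus strand): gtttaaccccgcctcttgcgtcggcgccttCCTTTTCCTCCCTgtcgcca
RPL13A (chr19:49487578-49487627, plus strand): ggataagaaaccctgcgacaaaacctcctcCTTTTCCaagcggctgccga
RPL35 (chr9:124861938-124861987, minus strand): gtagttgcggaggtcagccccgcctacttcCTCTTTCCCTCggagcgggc
RPL38 (chr17:74203648-74203697, plus strand): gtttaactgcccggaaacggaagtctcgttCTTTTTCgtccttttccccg
RPL13 (chr16:89560652-89560701, plus strand): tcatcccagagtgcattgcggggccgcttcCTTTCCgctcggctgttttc
RPS6 (chr9:19380217-19380266, minus strand): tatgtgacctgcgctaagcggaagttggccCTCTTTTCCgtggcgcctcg
RPS16 (chr19:39435930-39435979, minus strand): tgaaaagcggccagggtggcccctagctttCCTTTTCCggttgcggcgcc
RPS19 (chr19:41860225-41860274, plus strand): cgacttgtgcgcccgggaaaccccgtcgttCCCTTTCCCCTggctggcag
RPL3 (chr22:39319604-39319653, minus strand): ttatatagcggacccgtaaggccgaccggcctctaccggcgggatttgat
RPL4 (chr15:66504836-66504885, minus strand): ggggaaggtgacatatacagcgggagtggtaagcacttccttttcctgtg

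Such a tract, read on the strand of the gene only, stood at 1 or more annotated starts of 30 of the 42 matched genes, 71.4%. It stood at starts of 81.0% of the 21 matched genes in the rest of the cytosolic family, of 8.70% of 69 mitochondrial ribosomal protein genes and of 5.14% of all 27305 genes with an entry. Several genes have more than 1 annotated start, RPL13 and RPS19 among them, and the FPKM table does not say which start the cells used. A missing tract says only that these letters are not at that position. The median log2 difference between DOX and noDOX was -0.39 over the 30 members with the tract and -0.37 over the 12 without it, a contrast that was not tested.

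The members were among the most abundant transcripts of the cells. Leaving out small RNA genes, 40 of the 100 genes with the highest mean FPKM were members, and 42 of the 50 had a mean above 1000 FPKM. Together they held 20.8% and 16.03% of the FPKM sum without small RNA genes in noDOX 1 and 2, and 13.96% and 17.2% in DOX 1 and 2. The largest share was thus in 1 noDOX library and the smallest in 1 DOX library, with DOX 2 above noDOX 2. The median level over the members was 3324 and 1567 FPKM in noDOX 1 and 2 and 1335 and 2183 FPKM in DOX 1 and 2.

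**Figure D1:**
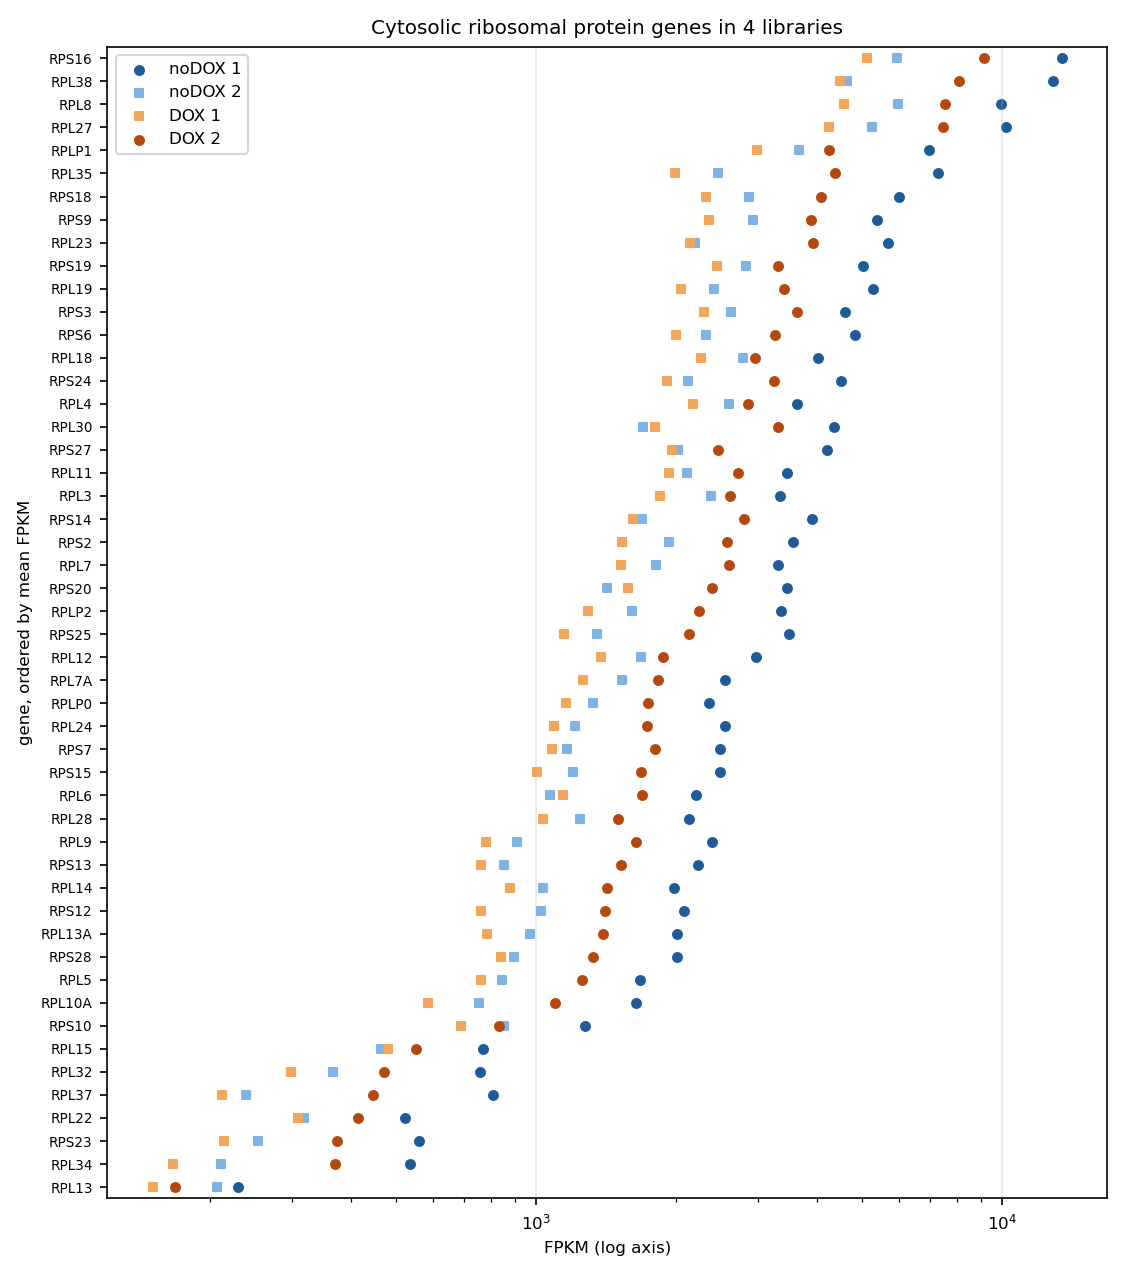
FPKM (log axis) of each of the 50 cytosolic ribosomal protein genes, ordered by mean level, with 1 point for each of the 4 libraries (dark and light blue, noDOX 1 and 2; light and dark orange, DOX 1 and 2). Circles (noDOX 1 and DOX 2) lie to the right of squares (noDOX 2 and DOX 1) in 48 of 50 genes, and noDOX 1 is the highest in all 50.

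Members differed in level 44.5-fold, although the proteins they encode are mostly present once in each ribosome. RPS16, a protein of the 40S head, had the highest mean, with 13404 and 5951 FPKM in noDOX 1 and 2 and 5118 and 9143 FPKM in DOX 1 and 2. RPL38, needed in the mouse embryo for translation of some Hox mRNAs, was at 12845 and 4650 FPKM in the noDOX and at 4493 and 8064 FPKM in the DOX replicates. RPL8, which lies near the peptidyl transferase centre, was at 9962 and 5974 FPKM without and at 4577 and 7526 FPKM with doxycycline. In each of these 3 genes the DOX values lay inside the range of the noDOX values or below it, and the groups overlapped.

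The lowest means belonged to RPL13, RPL34 and RPS23. RPL13 was at 229.9 and 207.0 FPKM in noDOX 1 and 2 and at 150.5 and 168.1 FPKM in DOX 1 and 2. RPL34 was at 537.0 and 211.1 FPKM without and at 166.6 and 370.9 FPKM with doxycycline. RPS23, which reaches into the decoding centre of the 40S subunit, was at 560.8 and 253.2 FPKM in the noDOX and at 213.8 and 373.4 FPKM in the DOX replicates. RPL13 did not overlap between the groups, whereas RPL34 and RPS23 did.

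The 60S stalk recruits translation factors to the ribosome, and its base is made by RPLP0 and RPL12. RPLP0, which anchors the stalk, was at 2350 and 1326 FPKM in noDOX 1 and 2 and at 1157 and 1739 FPKM in DOX 1 and 2. RPLP1, an acidic stalk protein, was at 6981 and 3661 FPKM without and at 2985 and 4257 FPKM with doxycycline. RPLP2, its partner, was at 3354 and 1608 FPKM in the noDOX and at 1294 and 2240 FPKM in the DOX replicates. RPL12 was at 2967 and 1675 FPKM and at 1375 and 1873 FPKM. All 4 genes had the same order of libraries, with noDOX 1 highest, then DOX 2, noDOX 2 and DOX 1. Their log2 differences between the group means ran from -0.50 for RPLP1 to -0.31 for RPLP0.

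RPL5 and RPL11 bind 5S rRNA, and the particle they form can bind MDM2 and so stabilise p53 when ribosome assembly fails. RPL5 was at 1675 and 847 FPKM in noDOX 1 and 2 and at 761 and 1255 FPKM in DOX 1 and 2, and RPL11 was at 3452 and 2112 FPKM without and at 1931 and 2708 FPKM with doxycycline. Neither separated the groups, and the log2 differences were -0.28 (SE 0.57) and -0.24 (SE 0.54).

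RPL3, a core protein near the peptidyl transferase centre, was at 3339 and 2370 FPKM in noDOX 1 and 2 and at 1843 and 2609 FPKM in DOX 1 and 2. RPL4, which lines the peptide exit tunnel, was at 3620 and 2596 FPKM without and at 2168 and 2855 FPKM with doxycycline. RPL35, which sits around the mouth of the tunnel, was at 7275 and 2454 FPKM in the noDOX and at 1987 and 4368 FPKM in the DOX replicates. All 3 repeated the order seen in the stalk. They differed in how far apart replicates lay, with noDOX 1 at 2.97 times noDOX 2 for RPL35 and at 1.41 and 1.39 times for RPL3 and RPL4.

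Among the other 60S members, RPL13A, which can leave the ribosome and repress translation of inflammatory mRNAs, was at 2009 and 970 FPKM in noDOX 1 and 2 and at 785 and 1391 FPKM in DOX 1 and 2. RPL22, a tumour suppressor in T cell leukaemia, was at 524.3 and 318.4 FPKM without and at 309.2 and 414.9 FPKM with doxycycline. RPL37 was at 809.9 and 238.9 FPKM in the noDOX and at 211.6 and 447.6 FPKM in the DOX replicates, the widest replicate ratio of any member at 3.39. RPL13A and RPL37 kept the common order, and so did RPL22.

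RPL32 was at 759.8 and 367.6 FPKM in noDOX 1 and 2 and at 298.0 and 472.9 FPKM in DOX 1 and 2. RPL30 was at 4349 and 1694 FPKM without and at 1801 and 3296 FPKM with doxycycline, and RPL6 was at 2208 and 1071 FPKM and at 1142 and 1691 FPKM. In RPL30 and RPL6 the lowest library was noDOX 2 and not DOX 1, as it was in RPL15 and RPS20 also.

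In the head of the 40S subunit, RPS3, which helps form the mRNA entry channel, was at 4600 and 2620 FPKM in noDOX 1 and 2 and at 2287 and 3624 FPKM in DOX 1 and 2. RPS19, the gene first found mutated in Diamond-Blackfan anaemia, was at 5039 and 2826 FPKM without and at 2444 and 3302 FPKM with doxycycline. RPS25, required by some viral internal ribosome entry sites, was at 3494 and 1348 FPKM in the noDOX and at 1149 and 2126 FPKM in the DOX replicates. These 3 genes overlapped between the groups.

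RPS10, another gene of that anaemia, was at 1273 and 855 FPKM in noDOX 1 and 2 and at 689 and 831 FPKM in DOX 1 and 2, and both DOX values lay below both noDOX values. RPS12 was at 2081 and 1026 FPKM without and at 760 and 1405 FPKM with doxycycline. In the body and platform of the subunit, RPS6, the classical substrate of the S6 kinases, was at 4842 and 2313 FPKM in the noDOX and at 1996 and 3259 FPKM in the DOX replicates. RPS14, lost in the 5q- form of myelodysplasia, was at 3907 and 1685 FPKM and at 1611 and 2794 FPKM. RPS10 stood apart from the other 3 genes, which kept the common order.

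DOX was compared with noDOX to ask how induced GATA4 changes the transcriptome. The comparison was run with limma on log2(FPKM + 1) over the 12504 genes whose mean reached 1 FPKM, all 50 members included. The filter set no limit on any member, since the lowest mean was 188.9 FPKM. All 50 members had a lower mean log2 value with doxycycline, where 56.1% of all tested genes had one. The median log2 difference was -0.38 over the members and -0.04 over all tested genes. Single genes ranged from -0.52 for RPL35, -0.51 for RPL37 and -0.50 for RPLP1 to -0.19 for RPL22, -0.16 for RPL30 and -0.15 for RPL6, with standard errors of 0.29 to 0.81.

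No member passed the test. The number past an adjusted p of 0.05 (limma, Benjamini-Hochberg over all genes) was 0 of 50, where 0.088% of all tested genes passed (0.064% lower and 0.024% higher with doxycycline), and 0 had an unadjusted p under 0.05, where 6.34% did. Most genes that passed were small RNA genes. Among the 12117 tested genes outside those classes, the same fit called 0 lower and 1 higher. The smallest adjusted p was 0.986, for RPL13, at a log2 difference of -0.45 (SE 0.29) between means of 218.4 ± 16.2 and 159.3 ± 12.4 FPKM (SD, n = 2 each). The next smallest unadjusted p-values were those of RPS10, RPL32, RPL12 and RPS12, with log2 differences of -0.46, -0.49, -0.47 and -0.50 and adjusted p-values of 0.999 each (limma). A single gene compared by exact permutation of 2 against 2 libraries cannot go below p = 0.33.

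Both DOX values lay below both noDOX values in 2 of 50 members, RPL13 and RPS10, where 17.3% of all tested genes did so, and above them in 0, where 14.7% did. Sizes of this difference depended on single libraries. Without noDOX 1 the median over the members was 0.13, with 40 of 50 higher with doxycycline, and without DOX 1 it was -0.02, with 30 of 50 lower. Without noDOX 2 it was -0.87 and without DOX 2 it was -0.70, with all 50 lower in both.

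The spread between replicates exceeded the difference between groups in nearly every member. On the log2(FPKM + 1) scale the 2 noDOX libraries differed by more than the group means in 49 of 50 members, and the 2 DOX libraries did so in 45 of 50. NoDOX 1 was a median of 2.07 times noDOX 2, from 1.11 for RPL13 to 3.39 for RPL37. DOX 2 was a median of 1.65 times DOX 1, from 1.12 for RPL13 to 2.23 for RPL34. In comparison, the ratio of the DOX mean to the noDOX mean ran from 0.628 to 0.864 with a median of 0.747. The order noDOX 1, DOX 2, noDOX 2, DOX 1 from highest to lowest was shared by 44 of 50 members and by 16.3% of all tested genes. NoDOX 1 was the highest library in all 50 members and in 35.1% of all tested genes.

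**Figure D2:**
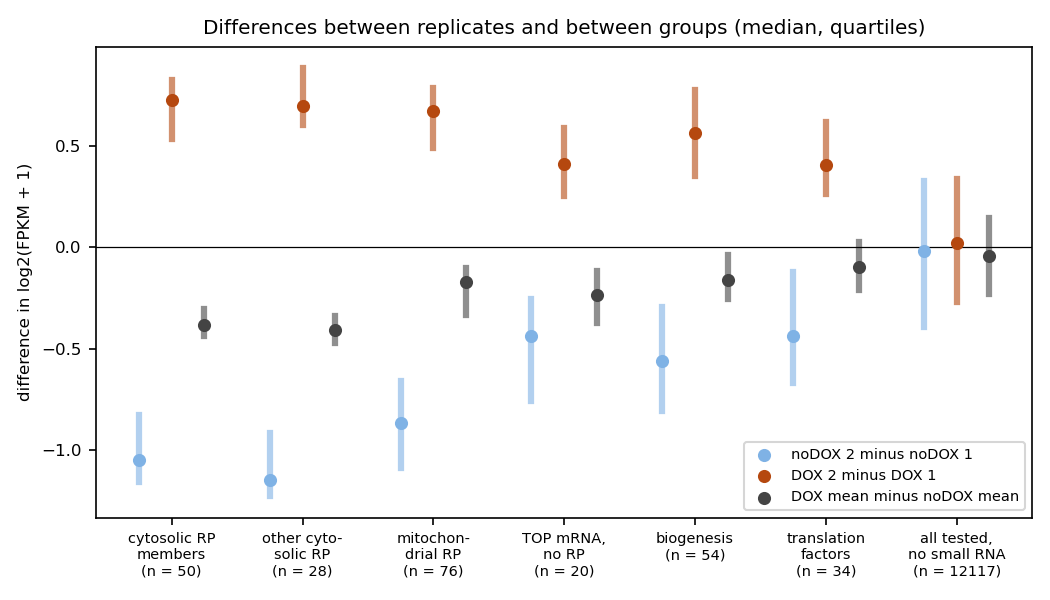
Median (point) and quartiles (bar) of the difference in log2(FPKM + 1) between noDOX replicates, between DOX replicates and between the group means, for the 50 members, the other gene lists and all 12117 tested genes without small RNA genes. In the members the replicate medians, -1.05 and 0.72, are both farther from 0 than the group median of -0.38.

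This order also held in most of the 28 tested genes of the rest of the cytosolic family. There, 26 of 28 had it, 28 of 28 had lower means with doxycycline, the median log2 difference was -0.41 and 0 passed (limma; 0 with an unadjusted p under 0.05). RPL21 was at 360.7 and 263.6 FPKM in noDOX 1 and 2 and at 139.7 and 219.7 FPKM in DOX 1 and 2, and RPL29 was at 1202 and 729 FPKM and at 590.0 and 762 FPKM. Of 6 tested paralogs of ribosomal proteins, RPL39L was at 73.8 and 47.3 FPKM without and at 35.1 and 50.9 FPKM with doxycycline, and RPL22L1, the paralog of RPL22, was at 38.1 and 11.6 FPKM and at 6.30 and 20.8 FPKM. The groups overlapped in both. Over the 6 paralogs the median log2 difference was -0.16, with 4 lower and 2 higher (RPL26L1 at 0.12 and RPL36AL at 0.024), and 0 passed (limma; 0 with an unadjusted p under 0.05).

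Mitochondrial ribosomal proteins, which are encoded in the nucleus and serve the separate ribosome of that organelle, differed between replicates in the same directions. Their 76 tested genes had median log2 differences of -0.87 from noDOX 1 to noDOX 2 and 0.67 from DOX 1 to DOX 2, against -1.05 and 0.72 in the members. Their median difference between the groups was smaller, at -0.17, with 67 of 76 lower and 0 passing (limma; 0 with an unadjusted p under 0.05). MRPS25 was at 18.4 and 14.6 FPKM in noDOX 1 and 2 and at 9.98 and 13.9 FPKM in DOX 1 and 2. MRPS2 was at 38.3 and 38.9 FPKM without and at 26.8 and 34.0 FPKM with doxycycline, so neither of these genes overlapped. Most of the set did overlap. Both DOX values lay below both noDOX values in 3 of the 76 genes and above them in 0. Over all tested genes the shares were 17.3% and 14.7%. Whether the cytosolic and mitochondrial sets differ was not tested.

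Other genes whose mRNAs carry TOP tracts, such as elongation factors, had a median log2 difference between the groups of -0.23, with 18 of 20 lower and 0 passing (limma; 0 with an unadjusted p under 0.05). IMPDH2, an enzyme of guanine nucleotide synthesis, was at 155.8 and 121.9 FPKM in noDOX 1 and 2 and at 73.8 and 108.2 FPKM in DOX 1 and 2, and EIF3E, a subunit of initiation factor 3, was at 319.8 and 240.3 FPKM and at 191.3 and 255.3 FPKM. Initiation, elongation and release factors outside that list had a median of -0.10, with 23 of 34 lower and 0 passing (limma; 0 with an unadjusted p under 0.05). EIF4A2, an initiation helicase, was at 212.3 and 375.3 FPKM without and at 185.6 and 147.5 FPKM with doxycycline, and EEF2K, the kinase that inhibits elongation factor 2, was at 2.29 and 4.07 FPKM and at 7.28 and 3.11 FPKM. The helicase separated the groups and the kinase did not. Of the 34 genes, 1 had both DOX values below both noDOX values and 2 had them above. Over all tested genes the shares were 17.3% and 14.7%.

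Genes that build the ribosome were likewise slightly lower in their medians. Ribosome biogenesis factors had a median log2 difference of -0.16, with 43 of 54 lower and 0 passing (limma; 0 with an unadjusted p under 0.05). RRS1, an assembly factor of the 5S particle, had a higher mean with doxycycline, at 71.6 and 36.7 FPKM in noDOX 1 and 2 and at 65.8 and 126.6 FPKM in DOX 1 and 2, and so did WDR36, at 2.92 and 2.94 FPKM and at 4.09 and 3.69 FPKM. RNA polymerase I, which transcribes the large rRNA precursor, and its factors had a median of -0.19, with 17 of 20 lower and 0 passing (limma; 1 with an unadjusted p under 0.05). TAF1D, a subunit of its promoter factor SL1, was at 61.0 and 52.4 FPKM without and at 26.1 and 37.7 FPKM with doxycycline, a log2 difference of -0.83 (SE 0.28; limma, adjusted p = 0.743). POLR1E, a polymerase subunit, was at 36.6 and 24.5 FPKM and at 16.1 and 24.98 FPKM.

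Regulators of ribosomal protein genes and of their mRNAs were split in direction. Of 27 tested genes of the MYC and mTOR list 11 were lower and 16 higher, with a median log2 difference of 0.06, and 0 passed (limma; 2 with an unadjusted p under 0.05). MYC itself was at 44.1 and 49.6 FPKM in noDOX 1 and 2 and at 20.9 and 33.0 FPKM in DOX 1 and 2. Both DOX values of MYC lay below both noDOX values, and the log2 difference of -0.81 (SE 0.30) missed the threshold (limma, adjusted p = 0.778). DEPTOR, an inhibitor of mTOR, was at 3.27 and 3.20 FPKM without and at 11.6 and 7.76 FPKM with doxycycline, a log2 difference of 1.31 (SE 0.24; limma, adjusted p = 0.420). In MYC and DEPTOR the replicates lay closer together than the groups, as they did in few members. DDIT4, of the same list, moved the opposite way to DEPTOR. It fell from 388.3 and 213.7 FPKM in noDOX 1 and 2 to 78.1 and 157.5 FPKM in DOX 1 and 2. By limma this change of -1.37 on the log2 scale did not pass either (adjusted p = 0.791). Of the 27 genes, 2 had both DOX values below both noDOX values and 5 had them above, where 17.3% and 14.7% of all tested genes did.

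In a list of genes linked to the 5S particle and the p53 checkpoint, without RPL5 and RPL11, 7 of 9 tested were higher and 2 lower. The median log2 difference was 0.22, and 0 passed (limma; 0 with an unadjusted p under 0.05). RPL5 and RPL11, which form the particle, were both lower, at -0.28 and -0.24. RRS1, given above with the biogenesis factors, is counted in this list also. HEATR3, which helps carry RPL5 and RPL11 into the nucleus, was at 5.72 and 5.87 FPKM in noDOX 1 and 2 and at 7.32 and 7.72 FPKM in DOX 1 and 2. BBC3, the p53 target PUMA, was at 18.7 and 24.96 FPKM without and at 16.6 and 12.0 FPKM with doxycycline. Neither gene overlapped between the groups. Of the 9 genes, 2 had both DOX values below both noDOX values and 2 had them above. Over all tested genes the shares were 17.3% and 14.7%. MDM2 was at 2.86 and 4.99 FPKM in the noDOX and at 8.73 and 4.51 FPKM in the DOX replicates, which overlapped.

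Transcript length moved with the difference between replicates. Lengths came from GENCODE release 29, matched by symbol, for all 50 members and 88.8% of tested genes. The members had a median length of 764 nt, and the tested genes of 2440 nt. Leaving out cytosolic ribosomal proteins and small RNA genes, the median log2 difference from noDOX 1 to noDOX 2 was -0.82 for 145 genes under 600 nt, -0.65 for 742 genes from 600 to under 1000 nt, -0.31 for 2903 genes from 1000 to under 2000 nt and -0.020 for 2676 genes from 2000 to under 3000 nt. It was 0.23 for the 4199 genes of 3000 nt or more. From DOX 1 to DOX 2 the medians of the same classes ran the other way, from 0.44 to -0.18.

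Genes of like length differed between replicates in the same directions as the members. Among 203 other genes from 600 to under 1000 nt whose mean reached 100 FPKM, the medians were -0.95 between the noDOX and 0.65 between the DOX libraries, against -1.06 and 0.73 in the 26 members of that length. The 203 genes share only that lower limit on level with the members, whose median level was 2077 FPKM, and were not matched to it. The median difference between the groups was -0.15 in those 203 genes and -0.38 in the 26 members. Within the 50 members, the difference from noDOX 1 to noDOX 2 and length had a Spearman rho of 0.50 (Pearson r 0.55, across genes that share the same 4 libraries). With a smooth trend on length removed from each library, an alternative added after the data were seen, the median over the members was -0.22, with 49 of 50 lower and 0 passing (limma). The part of length in the differences of single members was not tested further.

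Scaling between libraries changed how many members separated the groups. Dividing each library by its FPKM sum without small RNA genes moved the median of all genes from -0.04 to 0.07 and left the median of the members at -0.25 with all 50 lower. In that scaling 15 of 50 members had both DOX values below both noDOX values, where 9.69% of tested genes did, and 0 had them above, where 11.9% did. The 15 were RPL3, RPL4, RPL7A, RPL8, RPL11, RPL12, RPL18, RPL22, RPL28, RPL32, RPLP0, RPLP1, RPS10, RPS19 and RPS27, and RPL13 was no longer among them. Relative to the median of all genes the members stood at -0.34 as deposited at -0.32 in that scaling, at -0.14 after quantile normalization and at -0.21 with the length trend removed. After quantile normalization the median of the members was -0.13, with 45 of 50 lower. There 11 of 50 had both DOX values below both noDOX values and 0 had them above, where 14.7% and 19.9% of tested genes did. With the length trend removed these counts were 13 and 0, where 17.9% and 18.5% did. No member passed in any of these fits (limma; 0 with an unadjusted p under 0.05).

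Large and small subunit genes behaved alike in these measures. The median log2 difference between the groups was -0.38 over 31 genes of the 60S and -0.39 over 19 genes of the 40S subunit, with 31 of 31 and 19 of 19 lower. From noDOX 1 to noDOX 2 the medians were -0.95 and -1.07, and from DOX 1 to DOX 2 they were 0.69 and 0.74. By position in the ribosome, the group medians ran from -0.26 for the 2 proteins of the 5S particle to -0.46 for the 4 of the stalk and its base. None of these differences was tested.

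To see how members varied among themselves, the median over the 50 members was subtracted in each library. The members then moved little, with relative log2 differences between DOX and noDOX from -0.10 for RPL35 to 0.27 for RPL6. After this step 10 members had both DOX values above both noDOX values (RPS6, RPS24, RPL30, RPS14, RPS20, RPL24, RPS7, RPL6, RPS28 and RPL5), and 1, RPL32, had them below. With the same value subtracted from every tested gene, 14.1% lay above and 1.56% below. RPL30 and RPL6 had the largest of these differences, 0.26 and 0.27. Each is a value relative to the other members and not a rise, since both genes had lower means with doxycycline as deposited. This description was added after the values were seen and was given no test.

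**Figure D3:**
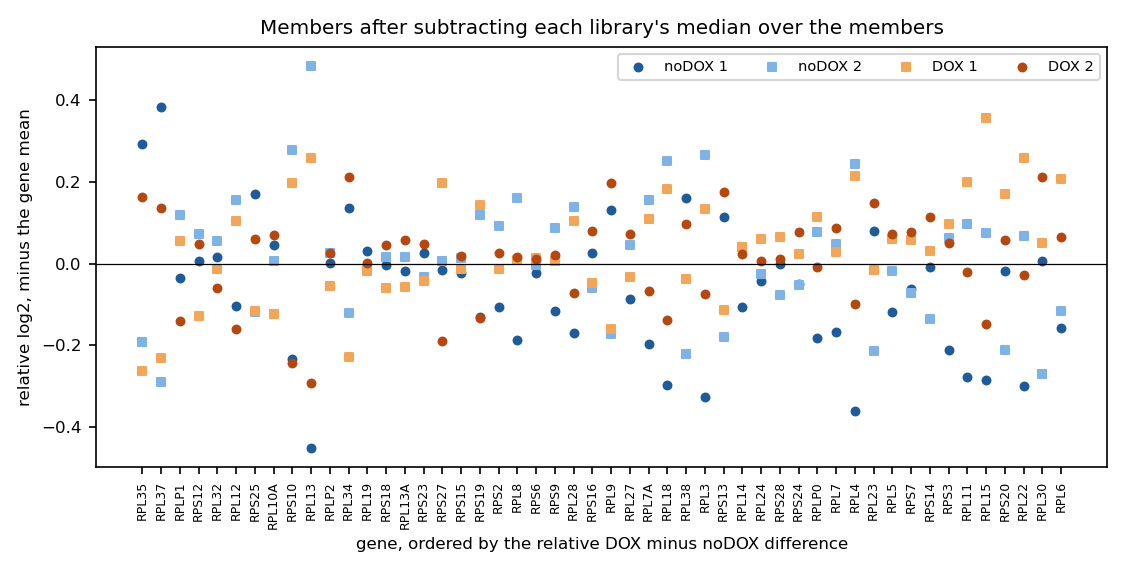
Log2(FPKM + 1) of each member minus the median over the 50 members in that library, then minus the mean of the gene over the 4 libraries, ordered by the relative DOX minus noDOX difference from RPL35 (-0.10) to RPL6 (0.27). Points are the 4 libraries; replicates of a group are often farther apart than the groups.

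Reads shared with near-identical copies limit single values. Ribosomal protein genes have many processed pseudogenes, and 13 rows of the table carry the name of a member's pseudogene. RPL13AP5, a pseudogene of RPL13A, was listed at 10669 and 7663 FPKM in noDOX 1 and 2 and at 6707 and 8211 FPKM in DOX 1 and 2, above RPL13A itself in every library, and the other 12 rows had means below 10 FPKM. The value of RPL13A is uncertain to that extent, since no source used here says how reads with several matches were counted. In GENCODE release 29, 14 of the 50 members share exon bases with another gene outside the small RNA classes, 11 of them with a gene on the opposite strand, and no source used here gives the strand setting. RPL4, RPL35, RPL38, RPS6 and RPS25 are among those 11.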

How the data were processed

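Polyadenylated RNA of 4 A549 libraries was analysed, 2 noDOX and 2 DOX, grouped by the labels. The authors deposited 1 table of FPKM per gene symbol and library. Per the submitters' processing notes, TopHat2 2.0.10, Bowtie, Cufflinks 2.2.1, Cuffdiff and hg19 were used. No source used here gives the annotation or any scaling between libraries. Depth is unknown, which leaves counting intervals out.

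Genes whose mean reached 1 FPKM were tested on log2(FPKM + 1), pseudocount 1, with limma 3.58.1 in R 4.3.3: 2 group means, a mean-variance trend, 2 residual degrees of freedom, two-sided p, Benjamini-Hochberg adjustment over all tested genes, threshold 0.05. A difference on this scale understates the change of low genes. Lists were described by counts and medians. The members and lists were chosen with earlier results of these data known.

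Members given by library were those with a marked role, the 3 highest and 3 lowest means, the 5 smallest p-values and the 3 lowest and highest log2 differences; of each other list, the 2 smallest p-values. DDIT4, MDM2 and the pseudogenes were named after their values were seen. Alternatives covered pseudocount, filter, scaling, small RNA genes (recognised by symbol prefixes such as MIR and SNOR), moderation, the replicate block and omission of single libraries. A crossed pairing and the removal of trends on length or GC content were chosen after seeing the data.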

Additional observations from a re-analysis of the deposited data

How the results depend on the processing

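No member passed under any alternative run (0 of 50 with limma in each; at an unadjusted p under 0.05, 3 of 50 with the crossed pairing, where 20.9% of tested genes did, and 0 in each other fit), and the direction of the median over the members changed only without noDOX 1. With each library left out in turn, the genes called ran from 41 to 63, the members called from 0 to 0, the members without overlap from 2 to 50 (50 lower without noDOX 2, where 45% of tested genes were lower, which follows from noDOX 1 being highest in all 50), and the median log2 difference of the members from -0.87 to 0.13. A group left with 1 library was assumed to vary like the other. Over all tested genes, 11 were called as reported, 7 with a pseudocount of 5, 1 without a filter, 1 at a mean of at least 10 FPKM, 1 with small RNA genes left out, 7 with the length trend and 6 with the GC trend removed. Deviations of noDOX 1 and DOX 1 from their group means correlated at -0.35 across genes, and those of noDOX 1 and DOX 2 at 0.35. With 2 libraries per group these are mirror images. They cannot show whether libraries of like number share a culture or batch. With the replicate block 65 genes and 0 members were called, and with the crossed pairing, added after the data were seen, 7 genes and 0 members. Members without overlap numbered 15 after scaling by the sum without small RNA genes, 11 after quantile normalization and 13 with the length trend removed, all lower, against 2, with the shares of all tested genes given above. Among the members given by library, after quantile normalization RPL6 (0.13), RPL30 (0.012), RPL38 (0.023) and RPS3 (0.0060) had higher means with doxycycline, and with the length trend removed RPL30 did (0.043). Except where shown by how an alternative is built, the cause was not tested.

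With a library left out, log2 differences changed sign in 21 of the members given by library: RPL5 -0.78 to 0.21, RPL6 -0.67 to 0.38, RPL11 -0.59 to 0.11, RPL13A -0.94 to 0.11, RPL22 -0.55 to 0.17, RPL30 -0.84 to 0.52, RPL32 -1.02 to 0.030, RPL34 -1.11 to 0.24, RPL35 -1.30 to 0.26, RPL37 -1.39 to 0.36, RPL38 -1.09 to 0.37, RPLP0 -0.73 to 0.098, RPLP2 -0.98 to 0.083, RPS3 -0.68 to 0.14, RPS6 -0.92 to 0.14, RPS12 -1.01 to 0.011, RPS14 -0.88 to 0.33, RPS16 -0.97 to 0.20, RPS19 -0.83 to 0.0076, RPS23 -0.99 to 0.16 and RPS25 -1.16 to 0.21. The rest of the 28 members given by library kept their sign: RPL13 (-0.53 to -0.37), RPL3, RPL4, RPL8, RPL12, RPLP1 and RPS10. Of these, RPL8 reached -0.025 and RPLP1 -0.039.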

Other observations

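Introns of ribosomal protein genes house many small nucleolar RNAs, which guide chemical modification of rRNA and are processed from the spliced introns. Of 33 such RNAs checked inside members on the same strand in GENCODE release 29, 31 had a row in the table, in 15 host genes. Both noDOX 1 and DOX 2 lay above noDOX 2 and DOX 1 in 10 of the 31, and in 14 of the 15 hosts. SNORD32A, in RPL13A, was listed at 4146 and 2990 FPKM in noDOX 1 and 2 and at 1933 and 3940 FPKM in DOX 1 and 2. SNORD36A, in RPL7A, was at 4100 and 1095 FPKM and at 1716 and 3139 FPKM. SNORD68, in RPL13, was at 797.3 and 1277 FPKM without and at 286.1 and 470.9 FPKM with doxycycline, with both DOX values below both noDOX values. Of the 31, 9 lay below in this way and 4 lay above, where 17.3% and 14.7% of all tested genes did. Those shares are mostly of other kinds of gene, since 12117 of the 12504 tested genes are no small RNA genes. They are not a background for small RNA genes. RPL13 was the only host whose own groups did not overlap. SNORD18C, in RPL4, was at 621.4 and 1289 FPKM and at 1347 and 1427 FPKM. SNORD54, in RPS20, was listed at 0 in DOX 1 and at 869 to 1605 FPKM in the other libraries, and 12 of the 31 were listed at 0 in at least 1 library. FPKM of RNAs this short in polyadenylated libraries are unreliable, and these genes were chosen after the values of the hosts were known.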
